A study of Mus musculus with 12 samples.

Results

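Cytosolic ribosomal protein genes encode the proteins that, with ribosomal RNA, build the small and large subunits of the ribosome. The genes described here are the rows of a mouse tumour count table whose symbol names a cytosolic ribosomal protein (Rps or Rpl with a number, Rplp0, Rplp1, Rplp2 or Rpsa), without the rows named as -ps pseudogenes and without the Rps6 kinases. They number 89 of the 35999 rows in the table, 36 of the small and 53 of the large subunit, and were chosen by symbol alone. In GENCODE M21, 83 are protein coding and 6 are annotated as pseudogenes (Rps4l, Rps12l1, Rpl32l, Rpl6l, Rps3a2 and Rps3a3). The filter on low counts kept 86; Rpl10l, Rpl32l and Rpl6l were not tested.

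RNA came from subcutaneous AB1-HA tumours, a mesothelioma line of mouse origin engineered to express the haemagglutinin of influenza virus, grown in male BALB/c mice aged 8 to 10 weeks. The 6 control mice received PBS and the other 6 received 100 µg of an antibody against CD4, the coreceptor of helper T cells, on day -3, day 0 and day 7 relative to inoculation. Tumours were taken on day 9. Labels number the tumours 1 to 6 in each group, and no label ties a tumour to a cage, day or batch.

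Ribosomal proteins are made in near-equal numbers, and the messages of most of them begin with a short run of pyrimidines, the 5′ TOP motif, through which mTOR signalling sets how strongly they are translated. Free Rpl5 and Rpl11 bind Mdm2 and stabilise p53, so these proteins also report on faults in ribosome assembly. A few have paralogs with restricted expression, such as Rpl3l in striated muscle and Rpl10l and Rpl39l in the testis. Their high expression has left many processed pseudogenes, reverse-transcribed copies whose sequence is so close to the parent that short reads often cannot be assigned to either.

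Sequences at the annotated start sites show the first feature that the symbol rule did not use. A run of at least 6 pyrimidines that begins with C within 10 bases of a RefSeq start was present in 32 of the 64 genes matched to the RefSeq start-site table (50%), against 5476 of 26961 other genes (20.31%). The search read the sense strand only, for C followed by C or T. The next lines give 30 bases of GRCm38.p6 around 6 starts on the sense strand, 15 before and 15 from the start, with the run in capitals. The first 4 were picked to show such runs, Rps18 and Rplp0 because the results turn on them.

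Rpl15, chr14:18270972-18271001, minus strand: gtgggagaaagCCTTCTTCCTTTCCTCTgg
Rpl27a, chr7:109519180-109519209, plus strand: gacttcgtgagCTCCTCCCTTTTCCCTTTC
Rps10, chr17:27635230-27635259, minus strand: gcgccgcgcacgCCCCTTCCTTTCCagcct
Rps6, chr4:86857353-86857382, minus strand: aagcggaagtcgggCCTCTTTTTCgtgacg
Rps18, chr17:33955651-33955680, minus strand: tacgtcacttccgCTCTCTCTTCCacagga
Rplp0, chr5:115559452-115559481, plus strand: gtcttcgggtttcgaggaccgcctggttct

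Rplp0 held no such run in this window, which says only that these letters are not at the annotated position. Median log2 fold change, anti-CD4 against PBS, was 0.14 over the 31 tested genes with a run and 0.20 over the 31 tested genes without one.

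Near copies matter for every value below, because the counts are estimates that kallisto shares among similar transcripts. A near copy is here a row outside the 89 that shares at least 100 stretches of 31 bases with a ribosomal protein transcript and is either annotated as a pseudogene or shares at least 50% of its own stretches. There were 659 such rows, 649 of them pseudogenes, and 75 of the 89 genes had at least 1. The lines below set the first 60 coding bases of Rps18 and Rpl3, and coding bases 388 to 447 of Rplp0, against their most abundant copies, with each differing base in capitals. They show how little sequence separates the rows. Sequences are from the GENCODE M21 transcripts on GRCm38.

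Rps18 (chr17:33951999-33956001, minus strand): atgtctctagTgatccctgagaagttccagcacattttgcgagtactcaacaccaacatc
Gm11361 (chr13:28257528-28258134, plus strand): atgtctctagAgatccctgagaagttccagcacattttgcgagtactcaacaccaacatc
Rpl3 (chr15:80077791-80091868, minus strand): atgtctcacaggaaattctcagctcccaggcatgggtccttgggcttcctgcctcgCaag
Rpl3-ps1 (chrX:13202571-13203780, plus strand): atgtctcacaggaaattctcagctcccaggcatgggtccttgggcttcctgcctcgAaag
Rplp0 (chr5:115559467-115563727, plus strand): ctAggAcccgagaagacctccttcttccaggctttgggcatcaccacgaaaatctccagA
Gm8730 (chr8:102864845-102865798, minus strand): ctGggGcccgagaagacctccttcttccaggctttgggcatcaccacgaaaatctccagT

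Counted from the first coding base of the ribosomal protein gene, Gm11361 differed from Rps18 by T11A, A171C and A337C over 459 bases, an identity of 99.35%. Rpl3-ps1 differed from Rpl3 by C57A and T786C (99.83%), and Gm8730 from Rplp0 at 12 positions (98.74%). The coding bases of Rpl5, Rpl10, Rpl12 and Rps12 were identical to those of Gm15500, Rpl10-ps3, Gm10275 and Rps12-ps3. Equal sharing was visible in a pair of Rpl27 copies, Gm11518 and Rpl27-ps3, which held the same estimated count to within 0.001 in all 12 tumours.

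Library totals ran from 30746898 to 41933148 estimated counts in the PBS tumours and from 34453540 to 62061770 in the anti-CD4 tumours, and the 4 deepest libraries were all from the anti-CD4 group. Cd4, the check of the treatment, stood at 6.31 ± 2.34 CPM in the PBS group and 1.31 ± 0.49 CPM in the anti-CD4 group without overlap (SD, n = 6 each; edgeR adjusted p = 0.00298). CPM values here are depth-scaled counts with TMM factors, and errors are SDs over the 6 tumours of a group. Of 8 mesothelial markers 4 were tested. Their log2 fold changes were positive for 2 and negative for 2 (-0.20 to 0.33), and 1 was called higher (edgeR). Among them, Msln was at 125 CPM in the PBS group and 122 CPM in the anti-CD4 group.

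The 89 genes took up 2.11% ± 0.14 of the counts of a PBS tumour and 2.23% ± 0.15 of those of an anti-CD4 tumour (SD, n = 6 each). The PBS shares were 2.34, 2.16, 2.12, 2.02, 2.07 and 1.95% in tumours 1 to 6, and the anti-CD4 shares were 2.03, 2.41, 2.34, 2.06, 2.26 and 2.28%. The groups overlapped: PBS 1 was as high as anti-CD4 3, and anti-CD4 1 and 4 lay among the PBS tumours. With the near copies added, the shares were 2.83% ± 0.17 and 3.01% ± 0.20. The ratio of small to large subunit counts was 0.845 ± 0.016 in PBS and 0.835 ± 0.023 in anti-CD4 tumours, and these overlapped too. In bulk tumour RNA, more cells that make a message and more message per cell cannot be told apart.

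**Figure D1:**
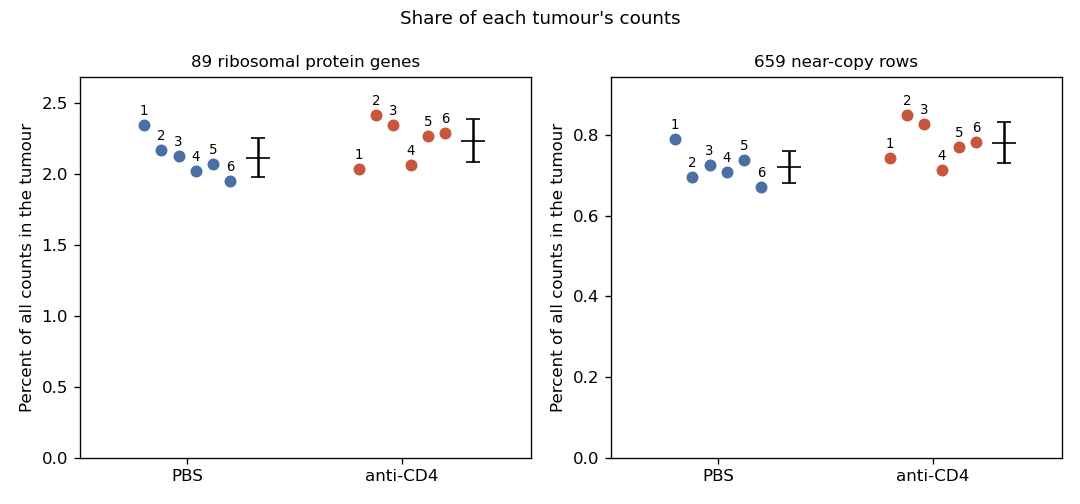
Percent of each tumour's estimated counts in the 89 ribosomal protein genes (left) and in the 659 near-copy rows (right), with both vertical axes from 0. Points are tumours numbered as in the labels, and the bar beside each group is the mean ± SD (n = 6); the anti-CD4 mean is higher in both panels, 2.23 against 2.11% on the left, and the groups overlap.

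The same tumours were high or low for many of the genes. Of the 86 tested genes, 30 reached their highest CPM in anti-CD4 2, 17 in anti-CD4 6, 17 in PBS 1 and 12 in anti-CD4 3, while 39 were lowest in PBS 6 and 30 in PBS 4. PBS 6 also had the lowest sum of 6 fibroblast markers (14650 CPM, against 20420 to 26850 CPM in the other PBS tumours and 26590 to 34040 CPM in the anti-CD4 tumours) and the highest sum of 7 pan T cell markers (53.3 CPM, against 25.4 to 36.0 and 6.61 to 29.9 CPM). All 6 fibroblast markers had a positive fold change and 2 of the 6 rose (Lum and Pdgfra), and all 7 pan T cell markers had a negative one and 3 of the 7 fell (Cd2, Cd5 and Zap70; edgeR). None of these markers was at 0 in any tumour, and their part in the ribosomal protein values was not tested.

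**Figure D2:**
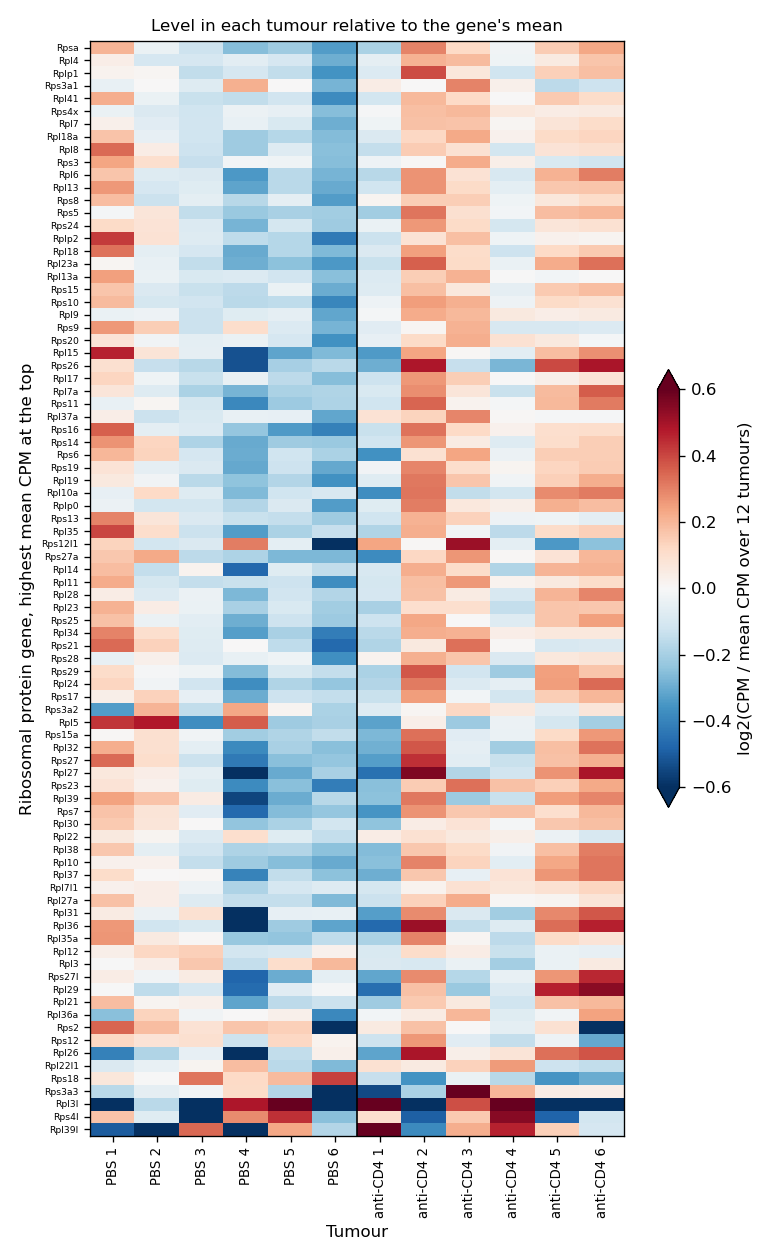
Level of each of the 86 tested ribosomal protein genes (rows, most abundant at the top) in each tumour (columns, PBS left of the line), as log2 of CPM over the gene's mean CPM in all 12 tumours. Most rows are red in PBS 1, anti-CD4 2 and anti-CD4 6 and blue in PBS 4 and PBS 6, and a few rows such as Rps18, Rpl5 and Rpl3l follow other patterns.

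Against PBS, 79 of the 86 tested genes had a positive log2 fold change in the anti-CD4 tumours, with a median of 0.16, while the median of all 17940 tested genes was -0.0003. Abundant genes leaned upward as a whole. Among genes with a mean log2 CPM of at least 4, 75 of 81 ribosomal protein genes (92.6%) were positive with a median of 0.16, beside 6059 of 8873 genes (68.3%) with a median of 0.06. Only 2 of the 86 passed the test: Rplp0 rose and Rps18 fell (edgeR, adjusted p under 0.05). Among all tested genes 5.28% were called, 2.95% higher and 2.33% lower, so in this fit the count of ribosomal protein genes called was not above the background. At an unadjusted p under 0.05 there were 27 higher and 1 lower, 32.6% of the 86 against 28.0% of all tested genes (13.4% higher and 14.7% lower). Some other fits called more genes, and those given next called a larger share of the 86 higher than of all genes. DESeq2 called 12 of the 86 higher (14%) and 1 lower, with 7.49% of all genes called higher. limma voom with sample weights called 43 (50%) and 1, with 15.7% of all genes called higher. Without PBS 1, edgeR called 20 higher (23.3%, against 6.41% of all genes), and without anti-CD4 1 it called 12 higher (14%, against 5.77% of all genes). Under upper quartile scaling, with no filter and with a replicate block it called 0 of the 86 higher. The median was 0.06 when the log2 library total was added to the model, and 59 of the 86 were positive.

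**Figure D3:**
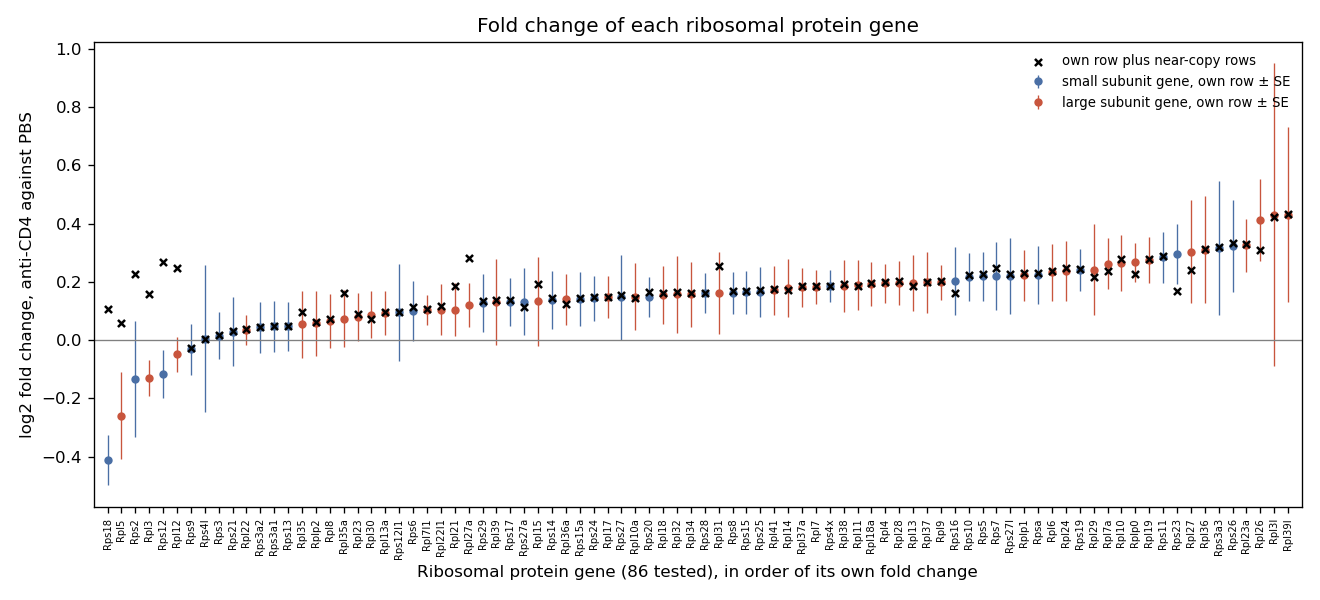
log2 fold change (anti-CD4 against PBS) of the 86 tested ribosomal protein genes in rising order; points are the gene's own row with its standard error, blue for the small and red for the large subunit, and crosses the same gene after its near-copy rows are added. Of the own rows, 7 lie below 0, and of the crosses only Rps9 does.

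Rps18, a protein of the head of the small subunit, was the lowest. Its CPM was 14.8 in the lowest PBS tumour, 16.5 at the median and 19.6 in the highest, and 11.5, 12.6 and 14.4 in the anti-CD4 tumours. Every anti-CD4 tumour was thus below every PBS tumour, which held for 1.19% of tested genes. The log2 fold change was -0.41 (SE 0.086, edgeR adjusted p = 0.0239).

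The Rps18 row held 6.83% of the counts of its family, the gene with its near copies; Gm11361 held 50.5% and Gm10260 39.98%. Gm11361 had a log2 fold change of 0.07 (adjusted p = 0.735) and Gm10260 of 0.22 (adjusted p = 0.443). The family had 203 ± 34 CPM in the PBS group and 219 ± 43 CPM in the anti-CD4 group, with overlapping ranges. Its log2 fold change was 0.11 (SE 0.14, adjusted p = 0.627), so the fall was not found in the family sum. The row's share of its family was 8.54% ± 1.87 in PBS and 6.05% ± 1.54 in anti-CD4 tumours. Vps52, which the annotation places next to Rps18 with overlapping ends on the opposite strand, had a log2 fold change of 0.02 (adjusted p = 0.847). The Rps18 call did not pass when PBS 3, PBS 6, anti-CD4 2, anti-CD4 5 or anti-CD4 6 was left out (highest adjusted p = 0.0701), nor when the rows named Rps18-ps were added (-0.22, adjusted p = 0.0848). In edgeR the call also failed with a replicate block (adjusted p = 0.0781) and with the log2 library total in the model (adjusted p = 0.246).

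Rplp0, the stalk base that anchors Rplp1 and Rplp2 and through them recruits elongation factors, was the one gene called higher. Its CPM ran from 195 over a median of 228 to 240 in PBS and from 234 over 269 to 305 in anti-CD4 tumours. Only anti-CD4 1 (234 CPM) fell inside the PBS range. The log2 fold change was 0.27 (SE 0.068, adjusted p = 0.0400). Of its family's counts 40.5% were in the Rplp0 row, 41.6% in Gm8730 and 17.2% in Gm9625, and these copies had log2 fold changes of 0.18 and 0.21. The family sum, 564 ± 50 CPM in the PBS group and 661 ± 57 CPM in the anti-CD4 group, had a log2 fold change of 0.23 and did not pass (adjusted p = 0.0740). The call on the own row passed in 3 of the 12 fits that left out a tumour, those without PBS 1, anti-CD4 1 or anti-CD4 4, with adjusted p from 0.0211 to 0.122 over all 12. In edgeR it missed the threshold under upper quartile scaling (adjusted p = 0.0537) and with no filter (adjusted p = 0.0544). It also missed with a replicate block (adjusted p = 0.109) and with the log2 library total in the model (adjusted p = 0.361).

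The stalk partners did not pass. Rplp1 had 692 ± 64 CPM in the PBS group and 807 ± 107 CPM in the anti-CD4 group (log2 fold change 0.22, SE 0.088, adjusted p = 0.122), and Rplp2 399 ± 82 and 415 ± 30 CPM (0.06, SE 0.11, adjusted p = 0.756). Both overlapped between groups, and PBS 1 held the highest Rplp2 value of all 12 tumours, 544 CPM.

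Another 2 genes, Rps4x and Rpl9, had all anti-CD4 tumours above all PBS tumours, as did 1.93% of tested genes. Rps4x was on the list of genes named by role, and Rpl9 was named after its values were seen. Rps4x, the X-linked small subunit protein whose row held 99.7% of its family, ran from 508 over 579 to 592 CPM in the PBS group and from 603 over 631 to 693 CPM in anti-CD4 tumours (log2 fold change 0.18, SE 0.055, adjusted p = 0.0601). For Rpl9, a protein of the large subunit, the values were 300, 357 and 365 CPM against 371, 388 and 436 CPM (0.20, SE 0.060, adjusted p = 0.0606). With near copies added both still had groups that did not overlap, with log2 fold changes of 0.20 for Rpl9 and 0.19 for Rps4x.

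The 5 highest fold changes among genes averaging at least 4 on the log2 CPM scale were those of Rpl26 (0.41, SE 0.14), Rpl23a (0.33, SE 0.090), Rps26 (0.32, SE 0.16), Rpl36 (0.31, SE 0.18) and Rpl27 (0.30, SE 0.18). Rpl23a, next to the exit of the peptide tunnel, came nearest to the threshold (adjusted p = 0.0508): 315 to 403 CPM in PBS and 364 to 512 CPM in anti-CD4 tumours. Rpl26 sits at the tunnel exit too, and its row held 20.3% of its family. Rps26 lies at the messenger RNA exit channel; it stood at 468, 440 and 469 CPM in anti-CD4 2, 5 and 6 and between 233 and 358 CPM in the other 9 tumours, PBS and anti-CD4 together. Those same 3 tumours were also the highest for Rpl27, with 170.3, 139.5 and 163 CPM, and for Rpl26, Rpl23a and Rpl36. The same held for further genes, Rps27l, Rpl24 and Rpl31 among them.

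The 7 negative genes were Rps18, Rpl5, Rps2, Rpl3, Rps12, Rpl12 and Rps9. Of these only Rps9 was still negative after near copies were added (log2 fold change -0.03 in both). Rpl5, which carries 5S RNA into the large subunit with Rpl11, had 195, 203, 112, 187, 125 and 127 CPM in PBS tumours 1 to 6 and 116 to 149 CPM in the anti-CD4 tumours. PBS 1, 2 and 4 were high and the other PBS tumours lay among the anti-CD4 ones. Its log2 fold change was -0.26 (SE 0.15, adjusted p = 0.266), and 0.06 with its copies, of which Gm15500 held 74.8% of the family's counts.

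Rps2, a protein of the messenger RNA entry channel, is the extreme case: its own row held 1.46% of the family, and a copy, Rps2-ps10, 94.97%. The row ran from 15.9 to 35.4 CPM in the PBS group and from 14.8 to 31.4 CPM in anti-CD4 tumours, and the family from 1458 to 2013 and from 1813 to 2149 CPM. The log2 fold change was -0.13 for the row and 0.23 for the family (adjusted p = 0.0927). For Rpl3, near the peptidyl transferase centre, the row held 4.25% of the family and the log2 fold change was -0.13, against 0.16 for the family. Rps12 held 12.5% (-0.12, and 0.27 for the family) and Rpl12, of the stalk base, 7.43% (-0.05, and 0.25). The Rps12 family leaves out Rps12l1, whose coding bases are identical, because the symbol rule counts Rps12l1 as a ribosomal protein gene. Rps12l1 had 211 CPM in the PBS group and 226 CPM in the anti-CD4 group, against 194 and 234 CPM for the Rps12 family. The share of Rps12 and its family fold change thus depend on that rule.

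**Figure D4:**
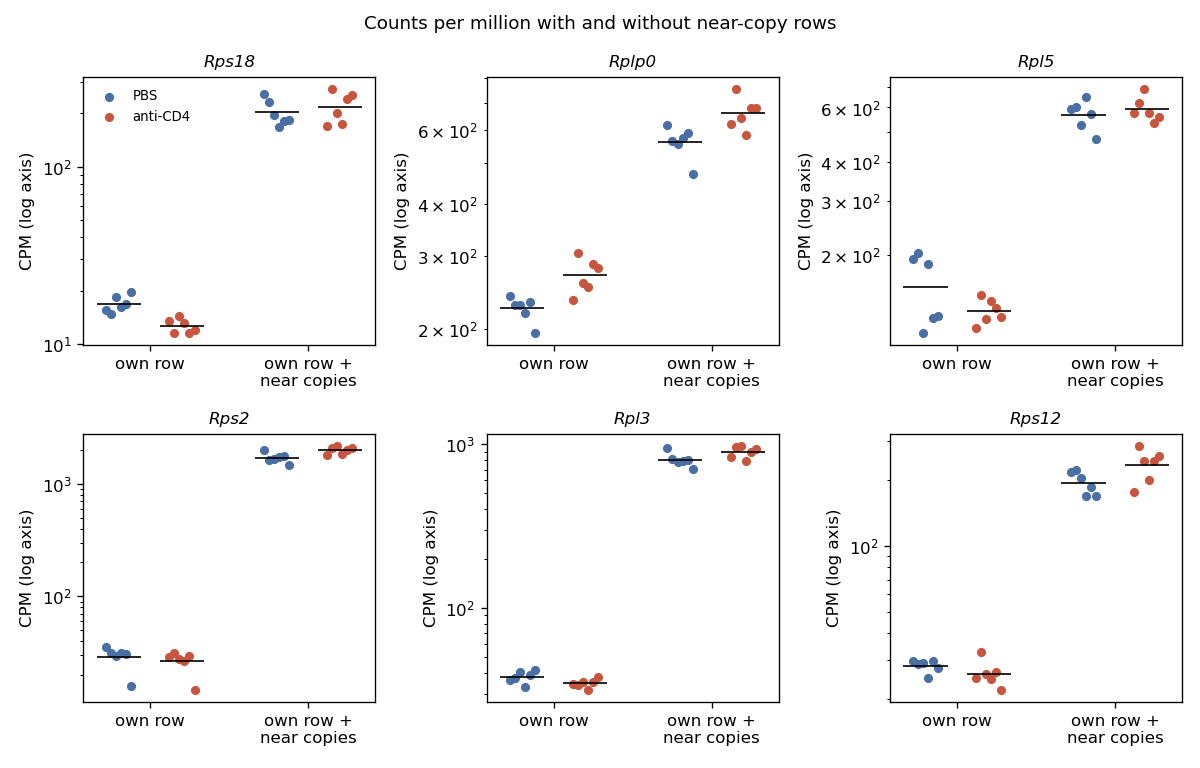
CPM on a log axis of 6 ribosomal protein genes in each tumour, from the gene's own row (left pair in each panel) and after adding its near-copy rows (right pair); blue points are PBS, red points anti-CD4 and black lines means. For Rps18 the groups do not overlap in the own row (11.5 to 14.4 against 14.8 to 19.6 CPM) and do in the sum.

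Over all 86 genes, near-copy addition gave 85 positive fold changes, a median of 0.17 and 0 calls (edgeR; 28 at an unadjusted p under 0.05, as were 27.8% of all rows), where 2.46% of the 17710 rows tested that way were called higher and 2.48% lower. The 58 tested genes whose row held at least 90% of the family had a median of 0.17 and 57 positive values. The 19 whose row held under 50% had a median of 0.11 and 13 positive values. Copies that are themselves ribosomal protein genes by symbol are not counted in a family. The class of at least 90% thus includes Rps12l1, Rps3a1, Rps3a2 and Rps3a3. Each is 98.87 to 100% identical in coding bases to another gene of the set. A high share therefore does not show that a row's counts are well separated. Of the 230 near-copy rows that could be tested, 116 were positive and 114 negative, and 1 was called, Gm4734, a copy of Rpl7, which fell from 1.55 ± 0.33 to 0.857 ± 0.151 CPM (adjusted p = 0.0335).

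The proteins with known roles outside or at the edge of the ribosome mostly showed small positive differences that did not pass. Rpl11, the partner of Rpl5, differed by 0.19 on the log2 scale (SE 0.085, adjusted p = 0.161), with a row that held 97.5% of its family. Rps19, mutated in Diamond-Blackfan anaemia, had 0.24 (SE 0.072, adjusted p = 0.0614), Rps14 0.14 (SE 0.099), and Rps20, at the head of the small subunit, 0.15 (SE 0.069). Rpsa, the laminin receptor precursor, was the most abundant own row by count and made up 6.45% of all ribosomal protein counts. It had 1289 ± 179.5 CPM in the PBS group and 1506 ± 179.3 CPM in the anti-CD4 group (0.22, SE 0.099, edgeR adjusted p = 0.156). Rps6, the substrate of S6 kinase, had 0.10 (SE 0.10), Rps3, which also acts in DNA repair, 0.02 (SE 0.081), and Rps27a, made as a fusion with ubiquitin, 0.13 (SE 0.12). Rpl13a, the subunit of the interferon-activated inhibitor of translation, had 0.09 (SE 0.077), Rpl38, linked to Hox messenger translation, 0.19 (SE 0.089), and Rpl10, the late-joining protein of the large subunit, 0.26 (SE 0.096, adjusted p = 0.101; 16.0% of its family). Rpl10a had 0.15 (SE 0.12) and Rpl7 0.18 (SE 0.059, adjusted p = 0.0756).

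Per kilobase of annotated transcript, the order of mean levels was led by Rpl41, the smallest ribosomal protein (1590 CPM per kb), then Rplp1 (1501), Rplp2 (967), Rpsa (874) and Rps15 (764), the last of which Rps10 followed at 758 CPM per kb. Rpl41 had 654 ± 89 CPM in the PBS group and 736 ± 56 CPM in the anti-CD4 group, with overlapping ranges. Lengths of the chosen transcripts are a source of error in this order. The foot of it held Rpl3l (1.33), Rpl39l (0.63), Rpl6l (0.23), Rpl32l (0.05) and Rpl10l (0 counts in every tumour). This order is of own rows. For a gene like Rps18 the position depends on the copies: 26.4 CPM per kb in the own row and 376 with the family. The top of the order depends on them too. Rps2 had 27.8 CPM per kb in its own row and 1856 with its family, above the 1591 of Rpl41 with its family.

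The restricted paralogs were low or absent beside their counterparts. Rpl3l had 0.342 to 3.25 CPM in PBS and 1.02 to 4.06 CPM in anti-CD4 tumours, an 11.9-fold range and the widest among the 86 tested ribosomal protein genes. Its highest values were in anti-CD4 4 (4.06 CPM) and PBS 5 (3.25 CPM), which also had the highest sums of 7 skeletal muscle markers, 1160 and 1059 CPM, and its lowest in PBS 3 (0.342 CPM), which had the lowest, 139 CPM; the markers' part in Rpl3l was not tested. Its log2 fold change was 0.43 (SE 0.52, adjusted p = 0.609). Rpl39l ranged from 0.141 to 0.548 CPM (0.43, SE 0.30). Of rows annotated as pseudogenes, Rps4l ranged from 0.587 to 1.69 CPM (0.01, SE 0.25) and Rps3a3 from 1.49 to 5.27 CPM (0.32, SE 0.23). Rps3a3 was 98.87% identical to Rps3a1, and 21.6% of its 31-base stretches occurred in no other gene, so its counts are uncertain. Coding identity was 74.34% between Rpl3 and Rpl3l and 85.26% between Rpl39 and Rpl39l, and 100% and 96.7% of the 31-base stretches of Rpl3l and Rpl39l occurred in no other gene.

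Widely expressed paralogs were found at moderate levels. Rps27l, a p53 target that is 76.08% identical to Rps27, ran from 25.9 over 35.0 to 37.2 CPM in the PBS group and from 29.0 over 39.1 to 49.3 CPM in anti-CD4 tumours (0.22, SE 0.13, adjusted p = 0.284), and Rps27 itself had 0.15 (SE 0.15). Rpl22l1, which is 70.87% identical to Rpl22, had 0.10 (SE 0.088), and Rpl22 0.04 (SE 0.051), the smallest standard error among the ribosomal protein genes. Rpl7l1, at 60.37% identity to Rpl7, had 0.10 (SE 0.052, adjusted p = 0.210), and Rpl39 0.13 (SE 0.15). Rps12l1, annotated as a pseudogene, has coding bases identical to Rps12 and was listed at 211 ± 43 CPM in the PBS group and 226 ± 51 CPM in the anti-CD4 group, above the 28.3 ± 1.8 and 26.1 ± 3.6 CPM of Rps12. By coding bases alone the pair cannot be told apart. Rps3a2 (144 ± 23 and 149 ± 8 CPM) is 99.49% identical to Rps3a1 (710 ± 78 and 734 ± 85 CPM) and is uncertain in the same way.

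Genes that work with ribosomal proteins were read from the same fit. Among relatives outside the symbol rule, Rack1, a scaffold on the small subunit, had 0.20 (SE 0.060, adjusted p = 0.0606), Rpl36al 0.30 (SE 0.097, adjusted p = 0.0762) and the fusion gene Fau 0.00 on the log2 scale (SE 0.087). Among 28 translation initiation factors 25 were positive with a median of 0.11. In edgeR 2 of the 28 were called higher, beside 2.95% of all tested genes. An unadjusted p under 0.05 was reached by 8 of the 28, against 28.0% of all tested genes. The 2 called were Eif4g2, which drives cap-independent initiation, from 1693 ± 82 to 2010 ± 93 CPM (0.25, SE 0.056, adjusted p = 0.0321), and Eif1ax, a start-codon scanning factor, from 99.8 ± 8.7 to 119 ± 9.8 CPM (0.26, SE 0.067, adjusted p = 0.0429). All 7 elongation factors were positive with a median of 0.16, and none passed the edgeR test, with 3 at an unadjusted p under 0.05, a level that 28.0% of all tested genes reached. Eef1a1, which delivers aminoacyl-tRNA, had 0.21 (SE 0.078, adjusted p = 0.103).

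Of 78 mitochondrial ribosomal protein genes, 68 were positive with a median of 0.10, and 0 passed the edgeR test (8 at an unadjusted p under 0.05, against 28.0% of all tested genes). The 45 ribosome biogenesis genes split into 26 positive and 19 negative with a median of 0.03 and 0 calls in edgeR (1 at an unadjusted p under 0.05), and 14 tested regulators of the MYC and mTOR pathways had a median of 0.06 and 0 calls in edgeR (1 at an unadjusted p under 0.05). Myc itself was at 83.8 ± 11.4 CPM in the PBS group and 88.0 ± 13.9 CPM in the anti-CD4 group. All 14 p53 pathway genes were positive with a median of 0.11. Of all tested genes 49.9% were positive, and of those with a mean log2 CPM of at least 4, 68.3%. In edgeR 2 of the 14 were called higher, beside 2.95% of all tested genes. An unadjusted p under 0.05 was reached by 6 of the 14, against 28.0% of all tested genes. Ccng1, a cyclin induced by p53, rose from 279.6 ± 22.5 to 342 ± 24 CPM (0.29, SE 0.064, adjusted p = 0.0293), and Eda2r, a receptor that p53 induces, from 40.1 ± 3.3 to 52.2 ± 5.0 CPM (0.38, SE 0.072, adjusted p = 0.0201). The other 12 did not pass, Mdm2 (0.10, SE 0.045) and Cdkn1a (0.11, SE 0.058) among them. All 6 proliferation markers were positive and 0 passed in edgeR (1 at an unadjusted p under 0.05), with summed levels of 1017 to 1407 CPM in PBS and 1186 to 1537 CPM in anti-CD4 tumours.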

How the data were processed

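Tumour RNA was depleted of ribosomal and globin RNA and read as 100-base pairs (labels' protocols). As the submitters' processing notes have it, the tools were bcl2fastq 2.20.0.422, and kallisto and the build was GRCm38.p6; the annotation release, the step from transcripts to genes, strand setting and filters were not given in the sources used here. Deposited were estimated counts for each gene symbol, of which 35.7 to 37.9% per tumour are not whole.

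Counts were rounded, filtered with filterByExpr by group, scaled by TMM and tested with the quasi-likelihood test of edgeR 4.0.16 (R 4.3.3) on all 12 tumours without covariates; p-values were adjusted by Benjamini-Hochberg over the 17940 genes tested, with a threshold of 0.05. The standard error is the fold change over the square root of F. P-values measure the spread between these tumours; no label says how they were kept apart. The fit was run on simulated counts, drawn independently for each gene. The folds planted there were larger than those of the ribosomal protein genes, so the run does not test such small folds. limma 3.58.1 and DESeq2 1.42.0 served as alternatives.

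Named genes were all called members, the 5 highest and 5 lowest by fold among those averaging at least 4 on the log2 CPM scale, 5 highest and 5 lowest per length, the 3 of widest spread, and a list by role. Members and lists were chosen with earlier results of these data known. Near copies were an alternative added after seeing the data. 8 snoRNA host genes were not analysed here, and 1 gene of the lists is not reported here.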

Additional observations from a re-analysis of the deposited data

Results flagged for a closer look

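In groups of 6, a tumour stood apart where its gap to the nearest other exceeded Dixon's 95% limit, which chance alone passes in about 1 in 20 groups; 4 of the 88 groups examined did so. Rps2 was at 15.9 CPM in PBS 6, against 29.5 to 35.4 CPM in the other PBS tumours. It was at 14.8 CPM in anti-CD4 6, against 26.6 to 31.4 CPM in the others of that group; the Rps2 row held 1.46% of its family's counts. Rps3a3, annotated as a pseudogene, was at 1.49 CPM in PBS 6, against 2.48 to 3.03 CPM. Rps9 was at 417 CPM in anti-CD4 3, against 338 to 364 CPM.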

How the results depend on the processing

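Called genes overall (947) and ribosomal protein genes called (2) moved with the method: 504 and 1 under upper quartile scaling, 2525 and 13 with DESeq2, 5978 and 44 with voom and sample weights, 523 and 1 with no filter, 33 and 0 with a replicate block, and 5 and 0 with the library total as covariate. They were 872 and 1 with -ps rows added, 1083 and 4 without anti-CD4 3 and 4, and 875 and 0 with near copies. Leaving out each tumour gave 62 to 2640 genes and 0 to 21 ribosomal protein genes, the highest without PBS 1. Upper quartile scaling moved the share of calls that were higher from 55.9% to 35.5%. The median log2 fold change stayed between 0.06 and 0.22 and the difference in library share between 0.08 and 0.18 percentage points. Cd4 was called under every setting run, at -2.55 to -2.08.

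Signs were read only for the named genes and for Rpl9, Rps9, Fau, Rpl36al and Rack1. The list is thus not complete for the 86. Of the 86, 79 were positive in the main fit, 59 with the library total and 74 under upper quartile scaling. Among the genes read, signs turned as follows (log2). With near copies added: Rpl12 0.248, Rpl3 0.158, Rpl5 0.0602, Rps12 0.268, Rps18 0.107, Rps2 0.226, Fau 0.00433. With -ps rows added: Rpl3 0.157, Rps12 0.266, Rps2 0.231, Fau 0.004. With the library total: Rpl10a -0.0652, Rpl27 -0.0319, Rpl36 -0.0478, Rpl39 -0.133, Rplp2 -0.0199, Rps2 0.0491, Rps27 -0.0653, Rps27a -0.00179, Rps27l -0.0847, Rps6 -0.0365, Rps9 0.00337. Under upper quartile scaling: Rpl22 -0.00997, Rps3 -0.0268, Rps4l -0.0395. With the stricter filter: Rps3 -0.000179, Rps4l -0.00944. Without anti-CD4 3 and 4: Rpl3l -0.0309, Rps3 -0.0502, Rps4l -0.22. Without mitochondrial and haemoglobin genes: Rps4l -0.00418. With voom: Rps9 0.0241, Fau 0.0874. Fau was also 0.00749 with RLE, 0.00372 with TMM without ribosomal rows, 0.0132 with DESeq2, 0.0155 with no filter and 0.00943 with the replicate block. Leaving out a tumour gave ranges of -0.0374 to 0.0829 for Fau, -0.00744 to 0.173 for Rplp2, -0.0276 to 0.0747 for Rps3, -0.137 to 0.112 for Rps4l and -0.0824 to 0.0286 for Rps9. The cause was not tested.

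The replicate numbers did not pair the samples: deviations of same-numbered tumours correlated between -0.41 and 0.23. No same-numbered pair was the best match in both directions. Under the replicate block the median of ribosomal protein genes was 0.17. At this number of tumours the median standard error of a ribosomal protein gene was 0.09.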
